A study of Drosophila melanogaster with 2 samples.

Results

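The tandem array of replication-dependent histone genes on chromosome 2L held 92 of the 939 Lola ChIP-seq peaks, and the summits of 86 of them lay in the coding sequence of a histone gene. These peaks were chosen by position, as all peaks of the deposited list that overlap the array from 21416953 to 21541681 of release 6 of the *Drosophila melanogaster* genome, which runs from the start of the leftmost *His1* copy to the end of the rightmost *His3* copy. Their number, their crowding in the array and the fact that each is a called peak follow from that choice. The series profiled S2 cells, a line derived from *Drosophila* embryos, by 1 chromatin immunoprecipitation of Lola and 1 input control, with no genetic change or treatment in the labels of either. Lola, a transcription factor with a BTB domain and zinc fingers, is named in the title and protocol, whereas the antibody entry of the same sample gives H3K4me2, a histone mark, and this conflict was not resolved. There was no replicate to give an error, and summits in near-identical repeats are not independent, so all values are a description with no test.

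Replication-dependent histone genes supply the histones that package newly copied DNA in S phase. His2A, His2B, His3 and His4 form the nucleosome core, and His1 is the linker histone that binds where DNA enters and leaves it. In *Drosophila* these genes lie together in repeat units, have no introns, and are transcribed inside a nuclear structure named the histone locus body. *His2B* and *His2A* start back to back from a shared promoter, as do *His4* and *His3*, and the GA repeats of the *His4* and *His3* promoter are known to bind the zinc finger protein Clamp.

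By the Ensembl annotation the array spanned 124729 bp and held 111 histone gene copies, with 23 each of *His1*, *His2B* and *His3*, 22 of *His4* and 20 of *His2A*. A unit was counted from the start of a *His1* copy to the base before the next one, and read from left to right *His1*, *His2B*, *His2A*, *His4*, *His3*, with *His2B* and *His4* on the minus strand. Of the 23 units, 19 had 1 copy of each of the 5 genes and were 4843 to 5151 bp long, with a median of 5045 bp. Units 1, 3 and 5 from the left had a pseudogene in the place of *His2A*, and unit 5 was 14041 bp long with a *roo* transposable element between *His3* and the next *His1*. In unit 23, at the right end, the place of *His4* was taken by a pseudogene with a *pogo* element inside. None of the 92 summits lay in the 4 pseudogenes or the transposable elements of the array.

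The sequences around the places where summits recurred are shown because they are coding sequence and not promoters. Each is 100 bases of the RefSeq genome on the strand of the gene, centred on the median summit distance from the transcript start, from the copy with the strongest peak there, and the capitals mark the 10 bases at the centre.
His1, +210 bp, His1:CG33840, chr2L:21496746-21496845, plus strand: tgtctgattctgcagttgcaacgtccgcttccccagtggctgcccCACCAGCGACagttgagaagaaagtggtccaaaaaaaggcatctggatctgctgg
His1, +772 bp, His1:CG33840, chr2L:21497308-21497407, plus strand: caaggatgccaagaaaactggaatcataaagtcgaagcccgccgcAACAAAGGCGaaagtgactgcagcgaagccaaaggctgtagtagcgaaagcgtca
His2B, +327 bp, His2B:CG33898, chr2L:21462550-21462649, minus strand: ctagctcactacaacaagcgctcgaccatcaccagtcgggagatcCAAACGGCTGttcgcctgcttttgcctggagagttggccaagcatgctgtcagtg
His2A, +228 bp, His2A:CG33847, chr2L:21508744-21508843, plus strand: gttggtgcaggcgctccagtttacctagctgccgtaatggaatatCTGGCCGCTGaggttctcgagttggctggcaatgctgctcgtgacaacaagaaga
His4, +236 bp, His4:CG33901, chr2L:21453917-21454016, minus strand: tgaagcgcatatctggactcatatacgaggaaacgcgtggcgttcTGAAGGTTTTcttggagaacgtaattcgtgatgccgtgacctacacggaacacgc
His3, +249 bp, His3:CG33860, chr2L:21529994-21530093, plus strand: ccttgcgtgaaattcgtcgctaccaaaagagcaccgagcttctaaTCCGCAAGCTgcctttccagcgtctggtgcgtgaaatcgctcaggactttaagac
The *His1* sequence at +210 was identical in 22 of 23 copies and the one at +772 in 19 of 23. The *His2B* sequence was identical in 23 of 23, *His2A* in 19 of 20, *His4* in 17 of 22 and *His3* in 18 of 23. Copies were compared at the same distance from the annotated start. In the 4 *His4* copies annotated with an earlier start, the compared bases were therefore another part of the gene. The same may hold for the *His2A* copy annotated with 476 bp. These 2 counts thus depend on the annotation as well as on the sequence.

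For comparison, the commonest sequences of the shared promoters between the divergent starts are given on the plus strand, because few summits lay there. The capitals mark TATAAA and GAGAG on either strand, including overlapping matches.
His2B to His2A start gap, chr2L:21423609-21423736, plus strand: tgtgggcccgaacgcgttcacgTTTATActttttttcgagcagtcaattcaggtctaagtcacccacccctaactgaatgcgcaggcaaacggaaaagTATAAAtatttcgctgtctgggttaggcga
His4 to His3 start gap, chr2L:21459266-21459446, plus strand: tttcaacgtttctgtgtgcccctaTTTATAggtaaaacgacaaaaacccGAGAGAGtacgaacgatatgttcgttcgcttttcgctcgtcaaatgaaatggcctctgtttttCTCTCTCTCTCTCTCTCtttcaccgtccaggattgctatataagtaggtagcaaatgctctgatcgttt
The gap between the *His2B* and *His2A* starts had a median length of 128 bp and held TATAAA in 20 of 20 copies and GAGAG in 0 of 20. The gap between the *His4* and *His3* starts had a median length of 183 bp and held GAGAG in 18 of 22 copies and TATAAA in 17 of 22, with 185 of the 343 occurrences of GAGAG in the array. The 4 gaps without GAGAG were 25 bp long, in units 19 to 22, where *His4* is annotated with an earlier start and a length of 526 to 528 bp. Between the *His4* and *His3* coding starts GAGAG was found in 22 of 22 units and TATAAA in 21. Within 50 bp of the 92 summits GAGAG was found in 12 (13.0%) and TATAAA in 5 (5.43%), against 10.8% and 18.7% of all windows of 100 bp in the array. Of 19276 promoters at distinct starts of protein-coding transcripts, taken from 250 bp before to 50 bp after each annotated start, 33.1% held GAGAG and 42.2% held TATAAA on either strand. These promoter windows were wider than the 100 bp windows, so the shares are not directly comparable.

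Summits fell inside histone transcripts in 87 of 92 peaks (94.6%, 95% Wilson interval 87.9 to 97.7%), while transcripts made up 55.1% of the array length. Coding sequence held 86 summits (93.5%, 86.5 to 97.0%) on 39.9% of the length. Over all 939 peaks, 15.9% of summits lay in annotated coding sequence, and among the 847 peaks outside the array the share was 7.44% (63 peaks). The authors' annotation classed all 92 as promoter peaks (up to 1 kb from a start), and the summits mostly lay past the start. The nearest annotated start was upstream of the summit in 84 of the 92 peaks (91.3%). Outside the array this held for 107 of the 354 peaks that were within 1000 bp of a start (30.2%). Most of those 354 peaks were in single-copy sequence, where the share was 94 of 334 (28.1%). In repeated sequence, as defined below, it was 13 of 20 (65%), which is closer to the array but rests on few peaks. The Wilson intervals cover the number of peaks only.

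**Figure D1:**
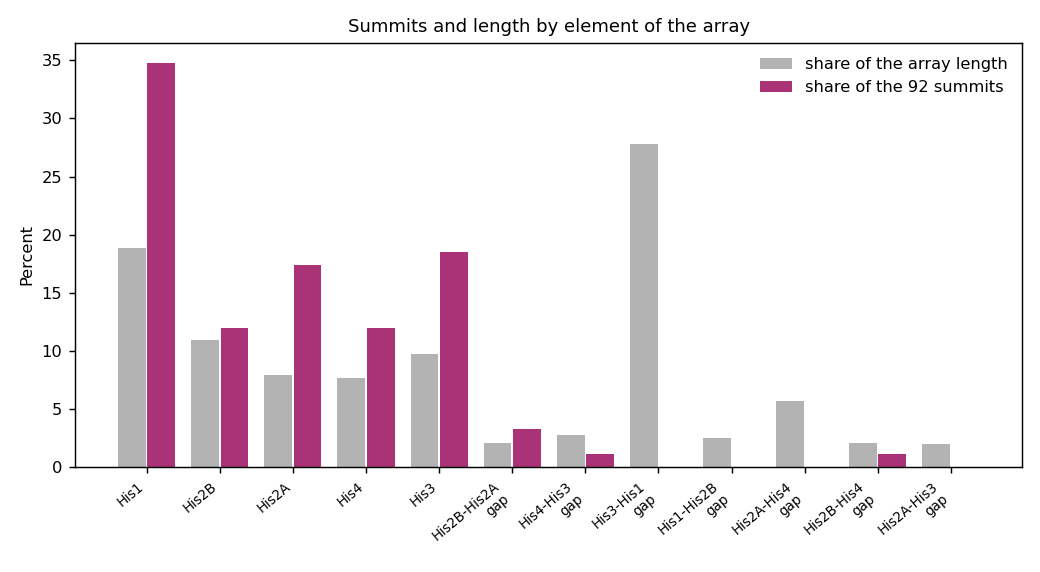
Share of the array length (grey bars) and share of the 92 summits (coloured bars), both in percent, for each histone transcript and each gap between neighbouring transcripts. *His1* transcripts took 18.9% of the length and 34.8% of the summits, while the *His3*-*His1* gap took 27.8% of the length and no summit.

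The gaps between transcripts held the other 5 summits. The *His3*-*His1* gap is the longest spacer of the unit, with a median length of 1182 bp, and none of its 22 occurrences was touched by any peak. The same was true of the 23 *His1*-*His2B* gaps and the 19 *His2A*-*His4* gaps, both of which lie between transcript ends. The *His2B*-*His2A* promoter gap was touched by a peak in 17 of 20 units, and a summit lay in it in 3. The *His4*-*His3* promoter gap, with its GA repeats, was touched by a peak in 3 of 22 units and held a summit in 1. The 5 summits outside transcripts were 15 to 87 bp before the nearest histone gene start by the annotation. The strongest of these was at *His2A:CG33844*, with a fold enrichment of 1.73 and its summit at -49 bp, and the weakest was at *His3:CG33842*, with 1.39 and -87 bp. The 1 summit in a transcript but before its coding sequence lay at +153 bp of *His1:CG33864*.

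*His1* was the only one of the 5 genes with a summit in every copy, 23 of 23, and it had 32 summits. It is also the longest gene, and per kb of transcript it had 1.36 summits, against 1.63 for *His2A*, 1.40 for *His3*, 1.15 for *His4* and 0.804 for *His2B*. They fell at separate places along the 1023 bp transcript. In 14 copies a summit lay 153 to 314 bp past the start, with a median of 210 bp, and in 14 copies a summit lay 662 to 833 bp past the start, with a median of 772.5 bp. In 9 copies there was a summit at both places, 455 to 634 bp apart, with a median of 519 bp. The other 4 summits lay between them, from 426 to 535 bp, each in a copy with no other summit. The 14 earlier summits had fold enrichments of 1.47 to 1.80 and the 14 later ones of 1.45 to 1.82, so that neither place was the stronger. The 4 summits in between had 1.37 to 1.55. *His1:CG33840* (FBgn0053840) carried the peak of highest −log10 p at both places, with 13.0 at +210 bp and 12.1 at +766 bp, and its fold enrichments there were 1.79 and 1.77. The weakest of the 92 peaks by −log10 p, at 4.14, lay at +532 bp of *His1:CG33807* with a fold enrichment of 1.37.

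*His2A* had a summit in 16 of 20 copies, with 1 summit in each. The summits lay 72 to 312 bp past the start of the transcript, 493 bp long in most copies, with a median of 228 bp. The strongest peak of the array, which ranked 262 of 939 by −log10 p (16.4) and had a fold enrichment of 1.92, lay at *His2A:CG33847* (FBgn0053847) from 21508360 to 21508975, with its summit 142 bp past the start. The weakest of the *His2A* peaks, at *His2A:CG31618*, had a fold enrichment of 1.44. *His2A* peaks were the widest, with a median of 558 bp against 232 bp for *His4*, and the widest of all, 967 bp, was at *His2A:CG33826*. Each of the 20 *His2A* copies also contained an annotated small RNA gene, and the authors' list assigned 18 of the 92 peaks to one of these in place of the histone gene.

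*His3* had a summit in 17 of 23 copies, 71 to 321 bp past the start of the 529 bp transcript, with a median of 237 bp. The fold enrichment ranged from 1.45 at *His3:CG31613* to 1.79 at *His3:CG33863*. The highest −log10 p among them, 12.5, belonged to *His3:CG33860*, with a fold enrichment of 1.77. The rightmost peak of the array was at *His3:CG33866*, with a fold enrichment of 1.58 and its summit at +71 bp.

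*His2B* and *His4*, which lie on the minus strand, had a summit in fewer copies. *His2B* had one in 11 of 23 (47.8%), and the summits lay within 272 to 372 bp past the start, with a median of 327 bp. All 11 lay in the later part of the 369 bp coding sequence, from 61.2 to 88.3% of the way along it. The fold enrichment ranged from 1.43 at *His2B:CG33880* to 1.79 at *His2B:CG33898*. *His4* had a summit in 11 of 22 copies (50%), 167 to 389 bp past the start, with a median of 241 bp, with the 2 highest, 337 and 389 bp, in copies of the longer annotation. From the coding start they lay 111 to 245 bp away, with fold enrichments of 1.49 at *His4:CG33891* to 1.71 at *His4:CG33901*. A peak can be wider than a gene, and 12 of the 92 peaks touched 2 copies, most often a *His2B* copy and the *His2A* copy that starts beside it. Counted by any overlap with a peak, *His2B* was touched in 19 of 23 copies and *His4* in 12 of 22, against 23 of 23 for *His1*, 19 of 20 for *His2A* and 18 of 23 for *His3*. Of the 55 summits in the 4 core histone genes, 42 lay between 25 and 75% of the way along the coding sequence. The counts were 12 of 16 in *His2A*, 10 of 11 in *His4*, 15 of 17 in *His3* and 5 of 11 in *His2B*. Of the coding summits of *His1*, 6 of 31 lay there. Over all genes, 91 of 111 copies were touched by a peak and 78 held a summit.

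**Figure D2:**
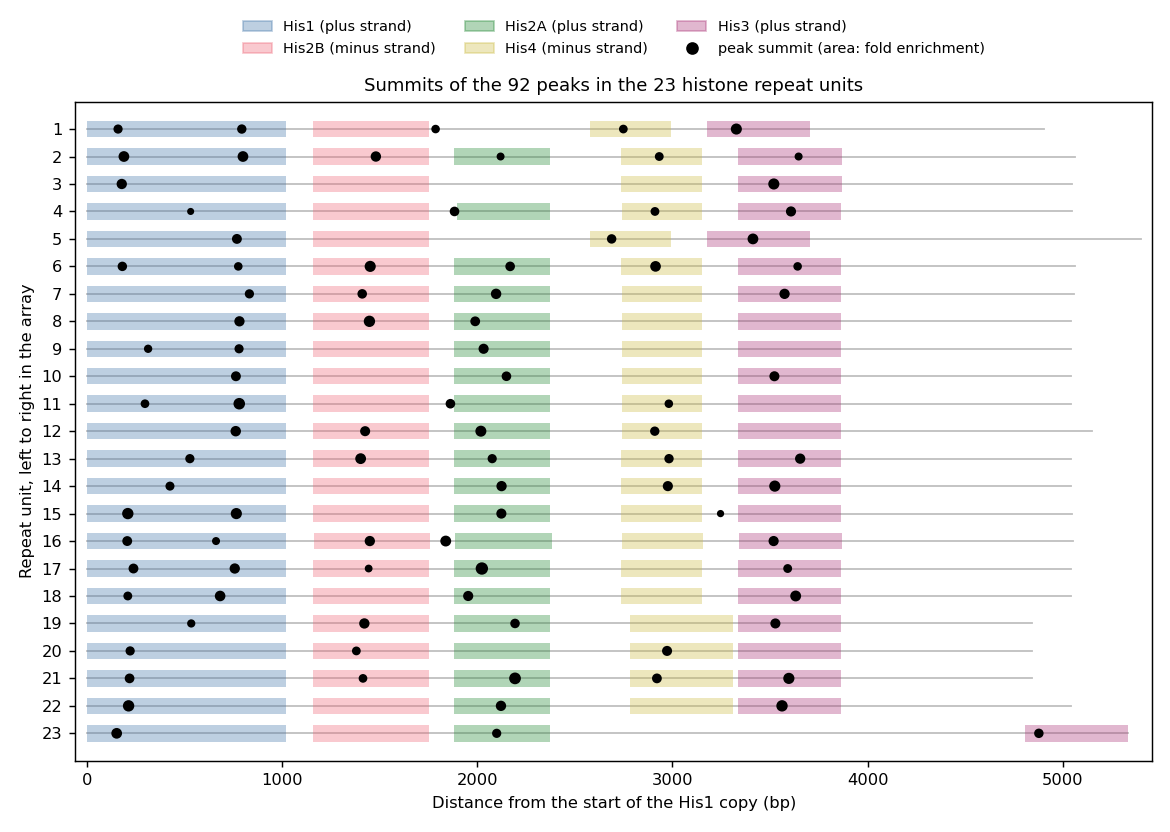
Summits (black points, area by fold enrichment) in each of the 23 units (rows, left to right in the array), by distance in bp from the start of the unit's *His1* copy, with histone transcripts as coloured boxes. Summits stacked in columns inside the boxes, with 2 to 6 per unit. Unit 5 is 14041 bp long and is drawn only as far as the axis runs.

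All 23 units carried at least 2 peaks. The number was 2 in 1 unit, 3 in 7, 4 in 8, 5 in 5 and 6 in 2, with a median of 4. A summit was found in all 5 genes in 4 units, in 4 genes in 5 units, in 3 genes in 10 units and in 2 genes in 4 units. Unit 3 had the fewest peaks, at *His1:CG33804* and *His3:CG33806*, and units 2 and 6 had the most. In unit 2 the fold enrichments were 1.72 and 1.72 in *His1:CG31617*, 1.68 in *His2B:CG17949*, 1.44 in *His2A:CG31618*, 1.52 in *His4:CG31611* and 1.45 in *His3:CG31613*. In unit 6 they were 1.58 and 1.49 in *His1:CG33813*, 1.76 in *His2B:CG33902*, 1.59 in *His2A:CG33814*, 1.71 in *His4:CG33901* and 1.49 in *His3:CG33815*. The order of the genes by enrichment thus differed between these units. Of the 3 units with a pseudogene in the place of *His2A*, unit 1 had a summit beside it, 34 bp before *His2B:CG33910* with a fold enrichment of 1.49, and units 3 and 5 had none between *His1* and *His4*. When summit positions within 100 bp of each other were joined, 8 sites recurred in at least 3 units. The most frequent site held summits of 20 units, of which 16 lay in a *His2A* transcript, 3 in the gap just before one and 1 in unit 1, which has no *His2A* copy, before *His2B:CG33910*. Its summits lay 1787 to 2194 bp from the *His1* start, the widest span of any site. With positions joined only up to 50 bp, the most frequent site held 16 units. The 2 main *His1* sites and the main *His3* site held summits of 14 units each. The *His2B* site held 11, the main *His4* site 9, and the *His1* site at +532 bp and the early *His3* site 3 each. Sites were joined by distance from the *His1* start. In units 1 and 5 *His4* and *His3* lie nearer to that start than in most units. The early *His3* site is therefore not one place in the gene. It joined the *His3* summits of units 1 and 5 to a summit in the *His4*-*His3* gap of unit 15. For the same reason the *His4* summits of units 1 and 5 fell outside the main *His4* site.

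Neighbouring summits of the array were 389 to 10810 bp apart, with a median of 1082 bp, and the longest interval crossed the *roo* element.

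Units of the same sequence carried different sets of peaks. Units 9, 10 and 11 had the same 5043 bases, and units 20 and 21 had the same 4843 bases, yet in these 4 pairs of units the set of genes with a summit in the transcript differed every time. Unit 9 had summits in *His1* and *His2A*, with fold enrichments of 1.47 and 1.55 at *His1:CG33822* and 1.65 at *His2A:CG33823*. Unit 10 had one in *His1* (1.62), *His2A* (1.59) and *His3* (1.64). Unit 11 had 2 in *His1* (1.5 and 1.82), one before *His2A* (1.59) and one in *His4* (1.49). Unit 20 lacked the *His2A* and *His3* peaks that were 1.84 and 1.77 in unit 21. Of the 15 pairs of units of equal length, 13 differed in fewer than 10 bases and in the genes with a summit. Gene copies with no summit in the transcript at a recurrent site were counted once per site. Over the 8 sites, 71.1% of these had the same 200 bp there as a copy with a summit. At the *His2B* site this was so for 12 of 12. Copies whose summit at the site lay in the gap before the transcript were counted as without. So were copies with a summit only at another site of the gene. At the early *His3* site this was 21 of 23 copies, among them those with a summit at the main *His3* site. At the main *His4* site the copies of units 1 and 5 were counted as without despite their summits. The *His4* copies annotated with an earlier start were compared at another part of the gene. The commonest *His3* transcript sequence was shared by 18 copies, 15 with a summit and 3 without, and the commonest *His2B* sequence by 9 copies, 3 with and 6 without.

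Reads from such copies can be assigned to a unit only where the units differ. Of 32894 words of 31 bases in the 92 peaks, 99.9% occurred more than once in the reference, in a median of 23 places, and in 91 peaks no word was found in 1 place only. The exception was the leftmost peak, at *His1:CG33801*, where 86.9% of words were repeated. Which unit a peak belongs to therefore cannot be told apart from how reads were shared between copies, and neither the read length nor the treatment of reads with several places is given in the sources used here. The counts of units and copies above describe the called peaks and not a number of bound units. Some 46% of the words also occurred within 50 kb of the array, and 6.38% elsewhere on the 7 chromosomes of the reference. The nearest peak past the right end, from 21542946 to 21543385, lay in *His-Psi:CR31614*, a pseudogene with 822 of its 825 bases identical to *His1:CG33855*. Its fold enrichment was 1.74, its summit was 207 bp past the start, and it lay 1265 bp outside the array, beside 1.58 for the last peak inside. To the left, the nearest peak outside was 19313 bp away with a fold enrichment of 8.45, and the first inside had 1.55.

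**Figure D3:**
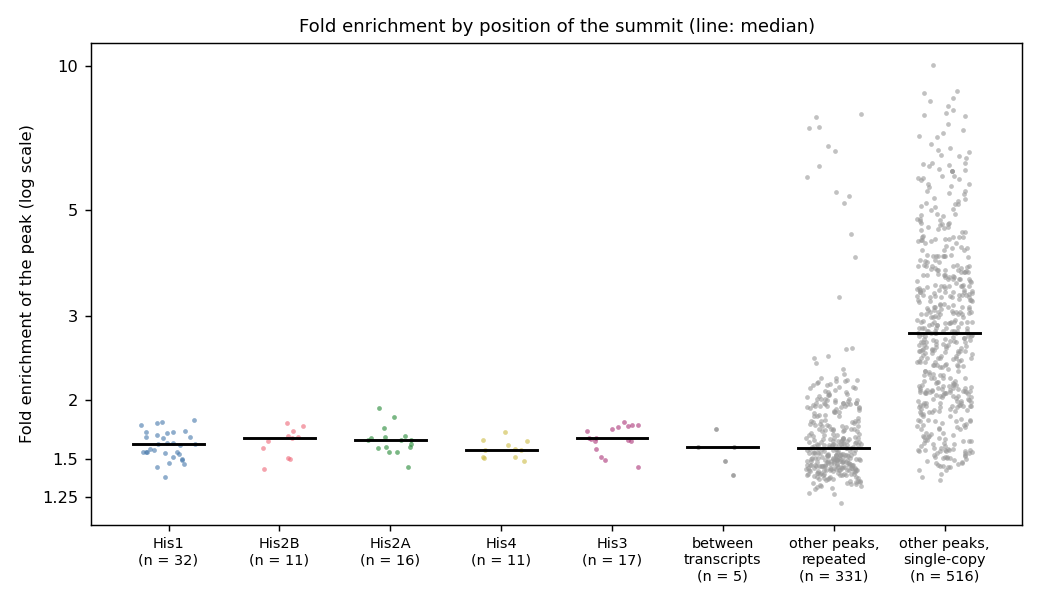
Fold enrichment of each peak (points, log scale) by the gene its summit lay in, for summits between histone transcripts, and for the other peaks in repeated and in single-copy sequence, with medians as lines. All 92 peaks of the array lay between 1.37 and 1.92, inside the range of the other peaks in repeated sequence.

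The enrichment over the array was low and even. The authors' fold enrichment had a median of 1.62, and the lower and upper quartiles were 1.55 and 1.69. The medians by gene were 1.61 for *His1*, 1.67 for *His2B*, 1.65 for *His2A*, 1.57 for *His4* and 1.66 for *His3*, with overlapping ranges. The other 331 peaks in repeated sequence, in which at least 50% of 31-base words were repeated, had a median of 1.59 and reached 7.93, while the 516 in single-copy sequence had a median of 2.75. Of the 92 peaks, 27 (29.3%) had a −log10 p of at least 10, against 50.5% of all peaks. A fold enrichment of at least 1.7 was found in 23 (25%), against 63.2% of all peaks. Among the 500 peaks of highest −log10 p were 30 of the 92 (32.6%), against 53.2% of all peaks and 32.3% of the other peaks in repeated sequence. The number of reads behind each peak is unknown.

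AAAGCT, a 6-base word common at single-copy summits of this library, was chosen with earlier results of these data known. Its share at the array summits was close to that in the array at large and at other peaks in repeated sequence. AAAGCT or its reverse complement lay within 50 bp of the summit in 4 of the 92 peaks (4.35%, 95% Wilson interval 1.7 to 10.7%). This compares with 28.9% of all peaks, 49% of those in single-copy sequence and 4.23% of the others in repeated sequence. Of all windows of 100 bp in the array 5.56% held it. Of all promoters 21.8% did, in windows of 300 bp, which are wider and so not directly comparable. The word was present in the array 73 times, and every *His1* copy had it at 461 and 657 bp past the start and every *His2B* copy had its reverse complement at 229 bp. The distance from a summit to the nearest of these places was 3 to 310 bp in *His1*, with a median of 138 bp, and 41 to 141 bp in *His2B*, with a median of 96 bp. *His2A*, *His4* and *His3* transcripts had none. The 4 peaks with the word near the summit were at *His2B:CG17949*, *His1:CG33837*, *His1:CG33843* and *His1:CG33849*, with the *His1:CG33843* summit, at +662 bp, on the word itself. Within the whole width of the peak the word was found in 41.3% of the 92 peaks.

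**Figure D4:**
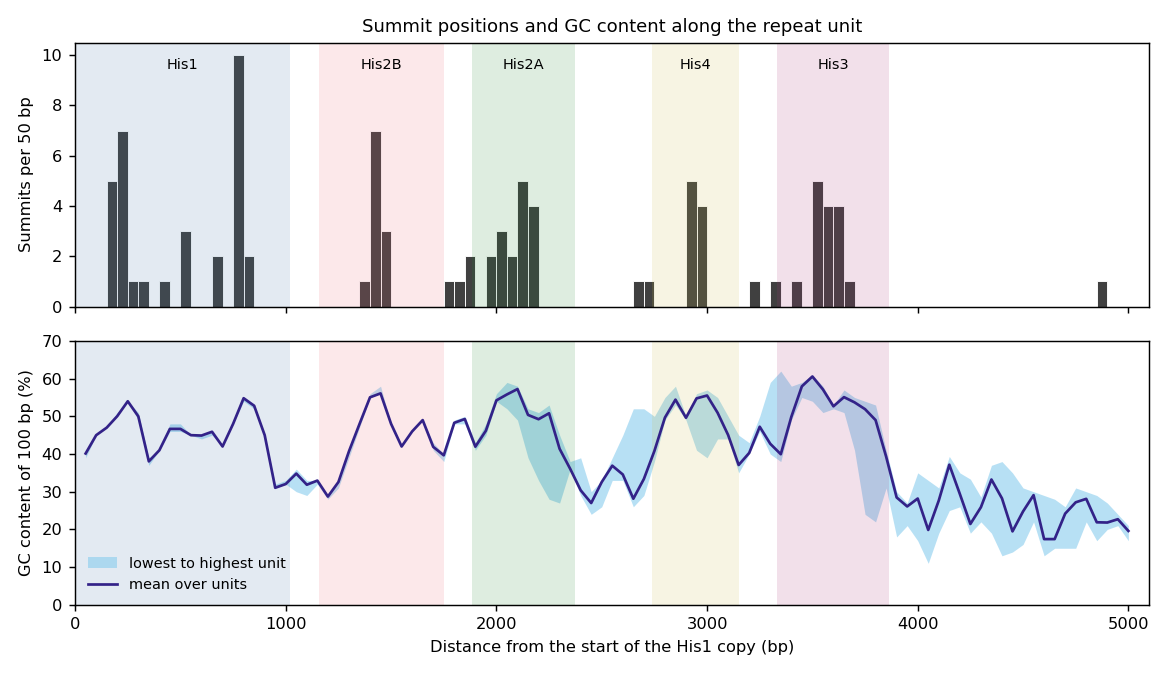
Upper plot, number of summits per 50 bp along the unit, and lower plot, GC content in percent of windows of 100 bp (line, mean over the 21 units other than 5 and 23, band, lowest to highest of them), both by distance in bp from the *His1* start, with the transcripts of unit 9 shaded. Of the 92 summits, 75 lay within 100 bp of a GC maximum of at least 50%, and no summit lay in the spacer from *His3* to the next *His1* except in unit 23, whose *His3* copy lies there.

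Base composition moved with the summits. GC content was 51.4% in coding sequence, 35.7% in the rest of the transcripts, 31.2% between transcripts and 27.2% in the *His3*-*His1* gap. Along the 21 units other than units 5 and 23 the mean GC content of 100 bp windows had 9 local maxima of at least 50%. Within 100 bp of the centre of one lay 75 of the 92 summits (81.5%), on 32.8% of the median unit length. The 9 maxima fell in the coding parts of the genes, and coding sequence held 86 of the 92 summits. The share near a maximum is therefore not separate from the coding share. *His1* had such maxima at 250 and 800 bp from its start, with 54.0% and 54.8% GC, and its main summit sites had medians 40 and 27.5 bp away. The median of the *His2B* site lay 24 bp from a maximum of 56.1%. The median of the most frequent site, at *His2A*, lay 13 bp from one of 57.2%, but its summits spanned 1787 to 2194 bp. The main *His4* and *His3* sites each lay 67 bp from the nearest maximum. The early *His3* site and the *His1* site at +532 bp, which held 3 summits each, lay 172 and 268 bp from it. The 172 bp is not a distance within *His3*, because in units 1 and 5 *His3* lies nearer to the *His1* start than in most units of the profile. The *His3* summits of units 1 and 5 had 64% and 55% GC in their own 100 bp. In the 100 bp at the summit the median GC content was 52.0%, against 38.5% in flanking windows that start 300 bp away, and 84 of the 92 peaks (91.3%) were higher at the summit. Outside the array this was so for 70.6% of peaks. The part of base composition in the calls was not tested.

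None of the listed histone and histone locus genes outside the array had a summit within 1000 bp of an annotated start, as 2.70% of 13875 protein-coding genes outside the array did. These were the replacement and variant histone genes *His2Av*, *His3.3A*, *His3.3B*, *His4r*, *BigH1* and *cid*, which are expressed from loci of their own, and *mxc*, *mute*, *Slbp*, *Lsm10*, *Lsm11* and *Clamp*, which act in the histone locus body or in the processing of histone mRNA. The nearest summits were 10686 bp from a start of *Clamp* and 14691 bp from one of *His2Av*. At the background share, few or no genes of a list of 12 would have a summit, so the count of 0 of 12 does not set these genes apart.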

How the data were processed

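The submitters' processing notes name Bowtie2, SAMtools, MACS2 and ChIPseeker and the build BDGP6, with no role, version or parameter. The authors deposited for each peak a fold enrichment, which is a ratio whose reference is not stated, a −log10 p, an adjusted −log10 value under the same heading, and positions in bp. The input library was not used here. Of the 939 deposited transcripts, 927 were found in the Ensembl release 115 annotation, 924 at the same position.

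A summit was the deposited peak start plus the summit offset. It was placed in the histone transcript that covers it, and in a unit. Summit offsets up to 100 bp apart were joined into sites, and a site in 3 or more units was called recurrent. Windows of 200 bp were compared between copies at the median distance of a site's summits from the transcript start. Words of 31 bases were counted on both strands of the whole reference. Assignment to units and sites was tested on simulated data. The histone array, the gene list, the word AAAGCT and all rules were chosen with earlier results of these data known. The 5 gene types, the copies at the strongest and weakest peak of each recurrent site, the outermost peaks and the listed genes were named by rule, and other copies after their values were seen. No test was made, because 1 ChIP library has no replicate. Python 3.11.15, numpy 2.4.6, pandas 2.3.3, scipy 1.17.1 and matplotlib 3.10.9 were used.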

Additional observations from a re-analysis of the deposited data

How the results depend on the processing

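Of 38 alternative values, 27 were labelled close to the value given. The rule was wide, and counted 13 and 14 complete units with a peak as close to 19. The share of summits inside transcripts and the listed genes with a summit were among the 27 under every alternative tried for them. A fold enrichment of at least 1.7 left 23 peaks, in 13 of the 19 complete units, 4 recurrent sites and 5 units at the most frequent site. A −log10 p of at least 10 left 27 peaks, in 14 of the 19 complete units, 5 recurrent sites and 6 units at that site, with a median fold enrichment of 1.75. These settings remove peaks by design. With sites joined up to 200 bp there were 5 recurrent sites. With windows of 100 bp, 88.7% of copies with no summit in the transcript at a site, counted once per site, had the sequence of a copy with one. AAAGCT was found in 13.0% within 100 bp of the summit and in 41.3% anywhere in the peak, as wider windows hold more words. No paired analysis was possible because there was 1 ChIP library. With 1 library and an unknown depth, no interval can be given for the enrichment of a peak.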
